A study of Mus musculus with 9 samples.

Results

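The loci of 10 genes that macrophages use (Clec7a, Nos2, Csf1r, Spi1, Ptprc, Laptm5, Tyrobp, Cd68, Runx1 and Irf8) were followed through the accessible chromatin of cochlear duct cells sorted for Sox2-EGFP. A peak belonged to a locus when its summit was closest, within 500 kb, to a start site of that gene's protein-coding transcripts. Overlapping or nearby peaks of the 9 lists were merged into regions, and 60 of 69354 regions, built from 199 peaks, belonged to the 10 loci. The genes were chosen because Clec7a and Nos2 were already known to carry strong peaks of Sox2-EGFP- cells in these lists, so the values given here for that contrast are descriptions without a test.

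The study mapped open chromatin in the embryonic mouse cochlear duct by ATAC-seq, which reads the DNA that a transposase can reach. All cells came from strain B6;129S-Sox2tm2Hoch/J, in which EGFP stands in the Sox2 gene, so the Sox2-EGFP- cells carried the same knock-in allele as the Sox2-EGFP+ cells. Ducts of pooled littermates were dissociated and sorted by EGFP into the brightest cells (Sox2-EGFP+, prosensory cells, the precursors of hair cells and supporting cells) and the darkest cells (Sox2-EGFP-). Sox2-EGFP+ cells were available at embryonic day 12 (E12), E14.5 and E16 with 2 replicates each, and Sox2-EGFP- cells at E14.5 with 1 replicate and at E16 with 2. EGFP was the only marker described for the sort, so the Sox2-EGFP- cells were whatever live cells of the dissected duct lacked it, and no step against blood cells was described. ATAC-seq of a sorted pool gives 1 profile for all of its cells, and fewer cells of a type cannot be told apart from less accessible DNA per cell.

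The deposited lists held 7577 to 66332 peaks. The 3 Sox2-EGFP- lists were of like length, at 23302, 23848 and 23899 peaks. The Sox2-EGFP+ lists were not: those of E12 held 7577 and 13817 peaks, while E14.5 replicate 1 and E16 replicate 2 held 66332 and 65870. The lists hold no read counts, so the reads behind each peak are unknown. By the study's own sample descriptions the libraries also differed in their number of reads, with the fewest at E12, and both longest lists came from the libraries with the highest share of reads in peaks. A cell type field in the labels gave the opposite sort to the title for 3 of the 9 samples (E16 Sox2-EGFP+ replicate 2 and both E16 Sox2-EGFP- replicates), and samples were grouped by title. Every peak of every list overlapped a peak in another list of its type under the titles, against 29.2% of the peaks of E16 Sox2-EGFP+ replicate 2 under that field. Under that field no region of any gene could be in Sox2-EGFP- lists alone. The deposited peaks all have a counterpart in a list of the same type by title. For both lists that the field calls Sox2-EGFP-, it places those counterparts among the Sox2-EGFP+ lists.

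Macrophages of the embryo arise from blood progenitors of the yolk sac and fetal liver and settle in most tissues, the inner ear among them. Their identity rests on the factor PU.1, encoded by Spi1, which binds purine-rich sites such as GAGGAAGT, often together with Irf8, Runx1 and C/EBP factors. Regions that open with the help of these factors often lie at a distance from the start site. Clec7a encodes a receptor for fungal beta-glucans and Nos2 the inducible nitric oxide synthase, both made by activated macrophages.

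Of all Sox2-EGFP- alone regions found in all 3 Sox2-EGFP- lists, those of Clec7a and Nos2 stood highest by -log10 p. The 300 bases around their summits in mm9 are printed because the results turn on these regions. Capitals mark the letters GAAANNGAA, the core of a site for interferon regulatory factors. Clec7a is read from chr6:129430144-129430443 and Nos2 from chr11:78700623-78700922, both on the plus strand.
Clec7a: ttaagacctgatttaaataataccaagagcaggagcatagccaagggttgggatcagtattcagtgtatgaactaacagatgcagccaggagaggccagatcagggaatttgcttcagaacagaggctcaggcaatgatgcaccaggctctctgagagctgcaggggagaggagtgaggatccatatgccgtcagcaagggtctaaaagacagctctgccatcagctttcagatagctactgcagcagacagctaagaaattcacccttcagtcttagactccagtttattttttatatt
Nos2: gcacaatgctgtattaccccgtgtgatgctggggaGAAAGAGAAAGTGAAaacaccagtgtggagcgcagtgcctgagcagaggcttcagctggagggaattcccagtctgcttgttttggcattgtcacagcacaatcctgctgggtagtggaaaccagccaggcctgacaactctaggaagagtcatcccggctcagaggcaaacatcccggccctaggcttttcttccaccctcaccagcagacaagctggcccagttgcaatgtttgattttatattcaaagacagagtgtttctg
The Nos2 window held 2 overlapping matches to GAAANNGAA, the first starting 115 bp before the summit, and the Clec7a window held none. These letters occurred, on either strand, in 7.84% of the windows of all 69354 regions. Neither window held the PU.1 type letters GAGGAAGT or their shorter core GAGGAA.

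The Clec7a region, chr6:129429793-129430933, was intergenic and had its summit 7.5 kb upstream of the only Clec7a start site, with the start of Olr1 26.9 kb away as the next nearest gene. Peaks were ranked within each list by -log10 p, the strength that the peak caller gave them, and the rank is stated as a percent of the list counted from the strongest peak. In E14.5 Sox2-EGFP- cells the region stood at 5.33% of the list, with a fold enrichment of 7.12 over the local background. At E16 it stood at 9.34% in Sox2-EGFP- replicate 1 and at 10.8% in replicate 2, with enrichments of 10.3 and 7.02. None of the 6 Sox2-EGFP+ lists had a peak in it. A second, weaker region lay 4.2 kb upstream of Clec7a and was found in Sox2-EGFP+ cells alone, at 82.2% of the list in E14.5 replicate 1 and 82.1% in E16 replicate 2.

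The Nos2 region, chr11:78700558-78701344, was also intergenic, with its summit 33.5 kb upstream of Nos2 and 60.7 kb from the next gene, 1810012P15Rik. It stood at 5.02% of the list in E14.5 Sox2-EGFP- cells and at 18.4% and 3% in the 2 E16 Sox2-EGFP- replicates. The fold enrichments were 7.59, 11 and 9.67 in the same order. The 2 E16 replicates thus differed in rank by more than E14.5 differed from either, and neither stage was set apart from the other. No Sox2-EGFP+ list had a peak there. The other 3 Nos2 regions lay in introns of the gene: those 4.38 kb and 31.9 kb past the start site came from 3 Sox2-EGFP+ lists alone, and the region at 8.74 kb was shared by all 3 Sox2-EGFP- lists and 2 Sox2-EGFP+ lists.

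The strength of these 2 regions was uncommon among peaks restricted to Sox2-EGFP- cells, most of which were weak. In the strongest 10% of each Sox2-EGFP- list, 0.168% to 0.43% of peaks were absent from every Sox2-EGFP+ list, which was 10 peaks at E14.5 and 4 and 7 peaks in the E16 replicates. In the weakest 10% the share was 26.1% to 35.9%. Of the 10 such peaks at E14.5, 2 were the Clec7a and Nos2 peaks. Of those at E16, Clec7a was 1 of 4 in replicate 1 and Nos2 1 of 7 in replicate 2. Among all Sox2-EGFP- alone peaks of a list, the Nos2 peak was the 3rd strongest of 2862 at E14.5, the 14th of 3365 in E16 replicate 1 and the strongest of 3371 in E16 replicate 2. The Clec7a peak was the 4th, 2nd and 9th.

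**Figure D1:**
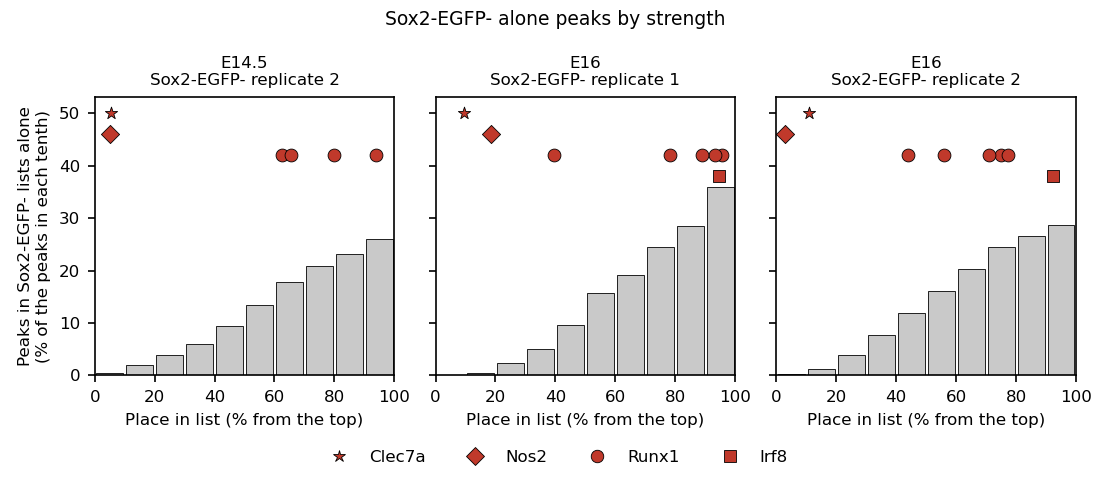
Share of peaks found in Sox2-EGFP- lists alone (bars, % of the peaks in each step of 10% of the list; x axis, place in the list by -log10 p, % from the strongest peak) in the 3 Sox2-EGFP- lists. Symbols mark the place on the x axis of the member peaks in Sox2-EGFP- lists alone (their height only separates the genes): Clec7a and Nos2 stood between 3% and 18.4%, where the bars are lowest, while the Runx1 and Irf8 peaks stood between 39.4% and 95.6%.

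Ordered by mean rank, the Clec7a region (mean 8.5% of the list) and the Nos2 region (8.82%) were 1st and 2nd of the 1623 regions found in all 3 Sox2-EGFP- lists and in no Sox2-EGFP+ list. The next were regions nearest to Dnm3 (13.9%), Lsm5 (14.7%) and Actn4 (16.5%), none of them on a list of blood cell genes used here. The median of the 1623 was 67.4%. Each of the 60 member windows matched the genome at its own place alone, at an identity of at least 80% over at least 150 bases.

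Across the 10 loci, 9 of the 60 regions (15%) were found in Sox2-EGFP- lists alone, against 5.63% of all regions. A further 10 regions (16.7%) were found in both cell types, against 28.8% of all regions, and 41 (68.3%) in Sox2-EGFP+ lists alone, against 65.5%. The Sox2-EGFP+ lists were 6 and the Sox2-EGFP- lists 3, and of the 41 regions 20 came from the 2 longest Sox2-EGFP+ lists alone. The matching share over all Sox2-EGFP+ alone regions is not given here, so the 20 are no trait of the members. Without those 2 lists, 21 regions were in Sox2-EGFP+ lists alone and 10 in Sox2-EGFP- lists alone. Because Runx1 is the nearest gene over a wide stretch of chromosome 16, it held 32 of the 60 regions and 6 of the 9. Without Runx1, 3 of 28 regions (10.7%) were in Sox2-EGFP- lists alone, and without Clec7a and Nos2 as well, 1 of 22 (4.55%).

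By gene, 4 of the 10 members had a region in Sox2-EGFP- lists alone (Clec7a, Nos2, Runx1 and Irf8), against 12.3% of all 22225 genes. In all 3 Sox2-EGFP- lists and no Sox2-EGFP+ list, 4 of the 60 member regions were found, against 2.34% of all regions. They belonged to 3 of the 10 members (Clec7a, Nos2 and Runx1), against 5.82% of all genes. Both genes that the choice of members started from are in these counts. Tyrobp and Cd68 had no region at all, and Csf1r, Spi1 and Ptprc had none with a Sox2-EGFP- peak. The farthest member summit lay 311 kb from its start site, and no peak nearest to a member lay beyond the limit of 500 kb.

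**Figure D2:**
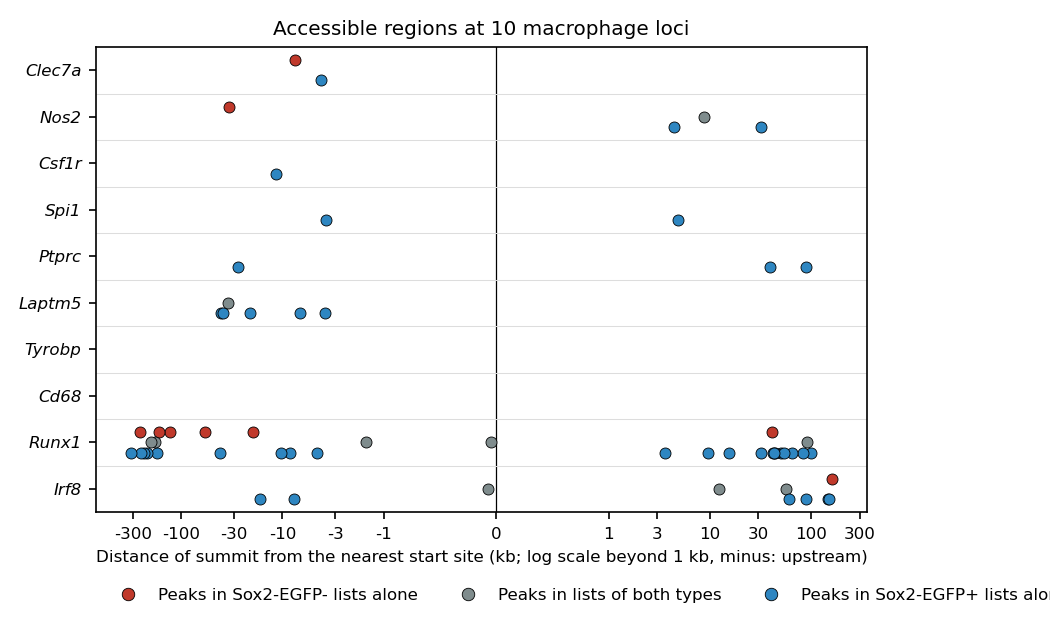
Distance of each of the 60 region summits from the nearest start site of its gene (x axis, kb, log scale beyond 1 kb; minus, upstream), by gene, coloured by the lists that held its peaks. The Sox2-EGFP- alone regions of Clec7a and Nos2 lie 7.5 and 33.5 kb upstream, Runx1 holds 32 regions, and the rows of Tyrobp and Cd68 are empty.

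A promoter was taken as the DNA between 1000 bp before and 100 bp after a start site. All 3 Sox2-EGFP- lists had a promoter peak at 2 of the 10 members (20%), Runx1 and Irf8, against 51.9% of all genes. Neither was particular to Sox2-EGFP- cells by presence: a Runx1 promoter had a peak in all 6 Sox2-EGFP+ lists and an Irf8 promoter in 3 of them. The promoters of the other 8 members, among them Clec7a and Nos2, had a peak in none of the 9 lists. The strong Clec7a and Nos2 regions were thus recorded without a peak at the promoter of the gene closest to them.

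Among the transcription factors, Spi1 had 2 regions. The region 3.68 kb upstream of a start site was found in 4 Sox2-EGFP+ lists, at 34.7% and 83.5% of the list at E14.5 and at 49.8% of the list in each E16 replicate. The region 4.8 kb downstream, in an intron, was found in 3, reaching 14.4% of the list in E14.5 replicate 1. The Sox2-EGFP- peak nearest to a Spi1 start site was 11.9 kb from it, belonged to the neighbouring gene Slc39a13 by distance, and was present in all 6 Sox2-EGFP+ lists as well. Of the 2 regions that overlapped the body of the Spi1 gene, 1 held a Sox2-EGFP- peak. By distance that region belonged to another gene, so it is not counted for Spi1.

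Runx1, needed for the emergence of blood stem cells and also used in other tissues, was the member with most regions. It had 5 start sites, and each distance is from the nearest of them. The region called its promoter here had its summit 0.048 kb upstream of a start site inside the gene. At the upstream end of the gene, the nearest regions lay 3.59 kb downstream and 4.56 kb upstream of a start site. Both were in Sox2-EGFP+ lists alone. The 6 Sox2-EGFP- alone regions of Runx1 were weak beside those of Clec7a and Nos2. The region 19.7 kb upstream, chr16:92845806-92846324, stood at 93.9% of the list at E14.5 and at 39.4% and 55.8% in the E16 replicates, with enrichments of 3.54, 8.93 and 5.62. The region 40.9 kb downstream, chr16:92654650-92655281, lay in an intron and stood at 62.5%, 78.2% and 74.9%. They were 670th and 973rd in the order of the 1623 regions. The other 4, between 57.8 and 254 kb upstream, were each found in 2 of the 3 lists and stood between 43.9% and 95.6%.

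The Runx1 promoter region was at 20.5% of the list at E14.5 and at 20.1% and 22.2% at E16 in Sox2-EGFP- cells. In Sox2-EGFP+ cells it stood at 32.7% and 45% at E12, at 8.65% and 12.7% at E14.5 and at 11.9% and 7.35% at E16. A region 217 kb upstream, chr16:93042807-93043964, was found in the 4 Sox2-EGFP+ lists of E14.5 and E16 alone. It stood above the promoter in the 2 longest lists, at 3.85% in E14.5 replicate 1 and 4.76% in E16 replicate 2, and below it in the other two, at 41.2% in E14.5 replicate 2 and 37.6% in E16 replicate 1. A region 181 kb upstream, shared by both types, was ranked higher in E16 Sox2-EGFP- replicate 2 (12.3%) than in any other list, but stood at 55% in E16 replicate 1 and 90% at E14.5.

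Irf8, a factor for the choice of the monocyte and macrophage lineage, had 10 regions. Its single Sox2-EGFP- alone region, chr8:123422794-123423201, lay 159 kb downstream of a start site and near the foot of both E16 lists, at 94.7% and 92.2%, with no peak at E14.5. The promoter region stood at 65% of the list at E14.5 and at 57.5% and 35.5% at E16 in Sox2-EGFP- cells. In the 3 Sox2-EGFP+ lists that had it, it stood at 21.7% to 29.8%. Regions 12.2 and 56.4 kb downstream were shared by both types, and the remaining 6 were found in Sox2-EGFP+ lists alone.

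Among the surface receptors and their adaptor, Csf1r, the receptor for macrophage colony-stimulating factor, had 1 region, 11.5 kb upstream, in 3 Sox2-EGFP+ lists at 62.9% to 84.9%. The Sox2-EGFP- peak nearest to its start sites was 60.4 kb away and closest to Pdgfrb. Ptprc, which encodes CD45, carried by nearly all blood cells but red cells and platelets, had 3 weak regions in Sox2-EGFP+ lists, at 48.5% to 77.1%. No Sox2-EGFP- peak lay within 275 kb of a Ptprc start site. Tyrobp, the signalling adaptor of several myeloid receptors, had its nearest Sox2-EGFP- peak 8.51 kb away, closest to Nfkbid and shared with 3 Sox2-EGFP+ lists. Of the 2 lysosomal proteins, Cd68 had its nearest such peak 3.39 kb away, closest to Mpdu1 and shared with 5 Sox2-EGFP+ lists. Laptm5 had 6 regions, of which 5 were found in Sox2-EGFP+ lists alone. The 6th, 34.2 kb upstream, was found in all 9 lists, at 21.8% to 55% in Sox2-EGFP- cells and at 3.36% to 79.7% in Sox2-EGFP+ cells.

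**Figure D3:**
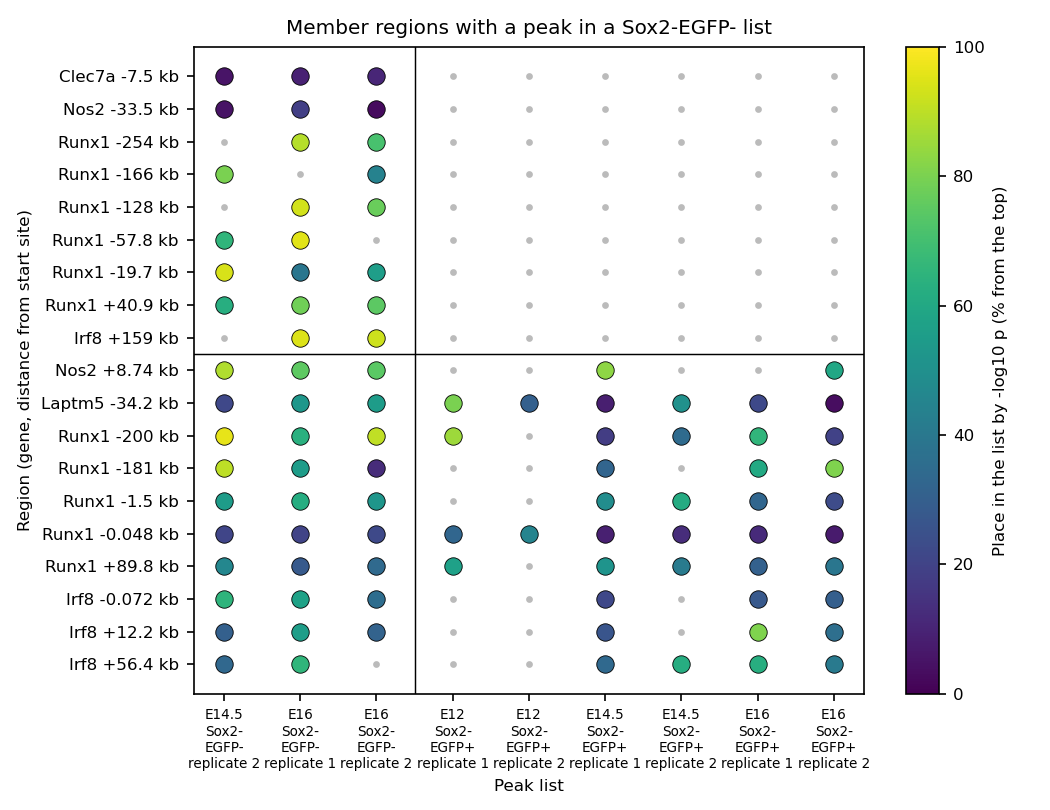
Place by -log10 p (colour, % from the strongest peak) of the 19 member regions that had a peak in at least 1 Sox2-EGFP- list, by list (x axis) and region (y axis, gene and distance from the start site); small grey dots mark lists without a peak. The upper 9 rows are found in Sox2-EGFP- lists alone, and of these Clec7a (5.33% to 10.8%) and Nos2 (3% to 18.4%) were within the strongest 20% of all 3 lists.

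By stage, the member loci took a like share of each Sox2-EGFP- list, 6.88 peaks per 10000 at E14.5 and 7.56 and 7.12 per 10000 in the E16 replicates. The Sox2-EGFP+ lists of E14.5 and E16 had 5.86 to 7.75 per 10000 and those of E12 3.63 and 3.97. Of the 9 Sox2-EGFP- alone regions, 4 (44.4%) were in all 3 lists, near the 41.6% of all Sox2-EGFP- alone regions. A further 3 (33.3%) were in the E16 lists alone, against 27.9% of all Sox2-EGFP- alone regions. The deposited lists keep only peaks with a counterpart in another list of the same cell type, so a region of a single list cannot appear among them, and with 1 Sox2-EGFP- list at E14.5 a region of that stage alone cannot either. No Sox2-EGFP- list was given for E12.

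To place the 10 members, 50 further genes of macrophages and other myeloid cells were counted in the same way. None had a region in all 3 Sox2-EGFP- lists and no Sox2-EGFP+ list, against 5.82% of all genes. A region in Sox2-EGFP- lists alone was found for 5 (10%), near the 12.3% of all genes. These were Syk and Fyb, of immune receptor signalling, Cebpb, a factor of myeloid cells and other tissues, Tlr2, a receptor for microbial lipoproteins, and Alox5ap, of leukotriene synthesis. Of the 142 regions nearest to the 50 genes, 4.23% were in Sox2-EGFP- lists alone, near the 5.63% of all regions. A promoter peak in all 3 Sox2-EGFP- lists was found for 11 of the 50 (22%), against 51.9% of all genes. The markers that define tissue macrophages were not among them: Aif1, Cx3cr1, Emr1, Fcgr1, C1qa, C1qb, C1qc, Mpeg1, Cybb, Trem2, Itgam and Fcer1g had no promoter peak in any Sox2-EGFP- list. The C1qc promoter had a peak in 3 Sox2-EGFP+ lists.

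To ask how far blood cell genes account for the regions missing from Sox2-EGFP+ lists, all 3902 Sox2-EGFP- alone regions were assigned to their nearest gene. The members took 0.231% of them, and the members with the 50 further myeloid genes 15 regions (0.384%), against 0.291% of all regions. With erythroid, lymphoid, neutrophil and mast cell genes added, 97 genes in all, the share was 22 regions (0.564%), against 0.463%. Of the 1623 regions in all 3 Sox2-EGFP- lists alone, 4 (0.246%) were nearest to a member or a further myeloid gene. That was near the 0.291% of all regions, and the 4 belonged to Clec7a, Nos2 and Runx1. A gene of the 97 was nearest to 8 (0.493%), near the 0.463% of all regions. These shares count nearest genes of fixed lists, and a region used by blood cells but nearest to another gene is not in them. Whether blood cells contributed to any of the regions was not tested.

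Over all genes, 5.82% had a region in all 3 Sox2-EGFP- lists and no Sox2-EGFP+ list. The other blood cell lists held few such genes. Among 12 lymphoid genes, Ebf1 and Bcl11b, factors of B and T cells with roles outside blood, had a region in all 3 Sox2-EGFP- lists alone. None of the 10 neutrophil and mast cell genes did. Of 12 endothelial genes, 3 did (Emcn, Erg and Cdh5), and of 13 mesenchyme genes 8 did, the 4 placed highest being Tbx18, Twist1, Prrx1 and Dcn. The share of regions in Sox2-EGFP- lists alone was 15.9% for the endothelial and 27.5% for the mesenchyme list, beside 15% for the members and 5.63% for all regions. Of 10 prosensory genes and 10 genes of the cochlear epithelium outside the prosensory domain, 2 each had such a region. Of 8 melanocyte and glia genes, none did. The lists were chosen with earlier results of these data known, and these shares were not tested.

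**Figure D4:**
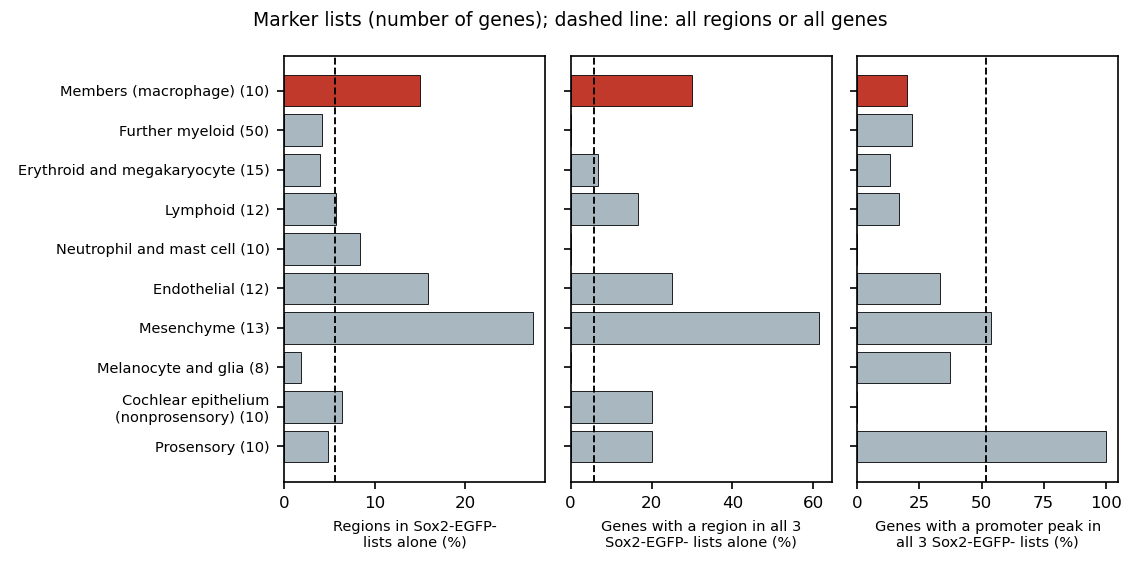
Share of regions in Sox2-EGFP- lists alone (left, %), of genes with a region in all 3 Sox2-EGFP- lists alone (middle, %) and of genes with a promoter peak in all 3 Sox2-EGFP- lists (right, %) for the 10 members (red) and 9 marker lists, with the number of genes in parentheses. Dashed lines mark all regions or genes (5.63%, 5.82% and 51.9%); the members lie above it at left and middle (15% and 30%) and below it at right (20%), and the 50 further myeloid genes lie below it in all 3 panels.

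Outside the members, the genes with most regions in all 3 Sox2-EGFP- lists and no Sox2-EGFP+ list were Runx1t1 with 6, Auts2, Ets1 and C130026L21Rik with 5 each and Adamts20 with 4. Among the members, Clec7a and Nos2 had 1 such region each and Runx1 had 2. Runx1t1 encodes a corepressor, Ets1 a transcription factor and Adamts20 a secreted protease. Of these, Adamts20 had the highest placed region (mean 31% of the list), below Clec7a and Nos2. The number of such regions also depends on how many regions a gene is nearest to: Auts2 had 73 in all and Runx1t1 20.

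The windows of 300 bases were searched for short letter strings on both strands. GAGGAAGT was in none of the 60 member windows and in 1.91% of all windows. Its core GAGGAA was in 20 of the 60 (33.3%), against 26.7% of all windows, and in 4 of the 9 Sox2-EGFP- alone windows, against 33.5% of all Sox2-EGFP- alone windows. C/EBP type letters (TTGCNNAA or TTGNGCAA) were in 3 of the 9, against 12.9%, and the Runx type TGTGGTT in none, against 7.07%. The Clec7a window had matches to the E-box CANNTG alone among the 12 types searched, and the Nos2 window to CANNTG and GAAANNGAA. CANNTG is short and was in 78.1% of all windows.
For 3 of the 4 genes, the core GAGGAA closest to the summit of the leading Sox2-EGFP- alone region is shown in capitals, within 30 bases, since these are the only letters of the PU.1 type in those regions; the whole Clec7a region held none. The Runx1 match lies on the plus strand of chr16:92845947-92845976, 33 bp before the summit, the Irf8 match on the minus strand of chr8:123423022-123423051, 8 bp from the summit, and the Nos2 match on the minus strand of chr11:78701151-78701180, 393 bp from the summit.
Runx1: gggtccttcacaGAGGAAccagctcttggg
Irf8: cccgcttgggaaGAGGAAatcaaaaaagcc
Nos2: ttgccactaaagGAGGAAgagaaaggaagg
The Nos2 match lay outside the window printed above, and binding of PU.1 was not measured.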

How the data were processed

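Reads had been trimmed (Trim Galore), mapped to mm9 (Bowtie2), filtered (Picard, SAMtools) and turned into peaks per sample (MACS2) by the authors, who kept peaks that overlapped another data set of the same type and removed blacklisted regions; versions were not given in the sources used here. The deposited lists give a score, a fold enrichment (a ratio to the local background), -log10 p and -log10 q values and a summit per peak. By the study's sample descriptions, replicate 1 of both E16 types formed a sequencing batch of its own. The strong Clec7a and Nos2 regions were in every Sox2-EGFP- list and no Sox2-EGFP+ list. Their presence was therefore bound to be the same inside and outside that pair.

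Peaks outside the autosomes, X and Y (344) were left out. Peaks overlapping or within 100 bp were merged, and a region took the gene of its strongest peak. Start sites were those of 51720 protein-coding transcripts (GENCODE vM1 on NCBIM37, which is mm9), where Spi1 is Sfpi1. Ranks are by -log10 p, with ties averaged. Scripts ran in Python 3.11.15 with NumPy 2.4.6, with BLAST+ 2.17.0 for copies of windows, and were tested on simulated data. The members and lists were chosen with earlier results of these data known. All members are named, then up to 4 genes a list by mean rank; the 12 myeloid markers without a promoter peak were picked after their values were seen. No test was run, since the lists hold no counts and E14.5 Sox2-EGFP- has 1 list.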

Additional observations from a re-analysis of the deposited data

Results flagged for a closer look

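Runx1 was marked because its share of the peaks went opposite ways at the 2 stages. At E14.5 the Sox2-EGFP- list had 3.87 Runx1 peaks per 10000 (9 peaks), below both Sox2-EGFP+ lists (3.92 and 4.36), and at E16 the Sox2-EGFP- lists had 4.2 and 4.19 (10 peaks each), above both Sox2-EGFP+ lists (2.55 and 3.95). The difference between stages was not tested. At E14.5 it rests on 1 Sox2-EGFP- list, less than 1 peak below the nearer Sox2-EGFP+ list. At E16 each Sox2-EGFP- list was likewise less than 1 peak above the nearer Sox2-EGFP+ list.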

How the results depend on the processing

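With start sites limited to 100 kb, 5 member regions were in Sox2-EGFP- lists alone. With the 5000 highest peaks of each list there were 3, beside 1 in both types, 2 in Sox2-EGFP+ lists alone and 1223 Sox2-EGFP- alone regions over all genes; with the 20000 highest, 11 member regions were in Sox2-EGFP+ lists alone and 6114 regions of all genes in Sox2-EGFP- lists alone. Without both longest Sox2-EGFP+ lists, 21 member regions were in Sox2-EGFP+ lists alone. With the cell type field in place of the titles, 56 member regions were in both types and 4 in Sox2-EGFP+ lists alone. In Sox2-EGFP- lists alone there were 0 member regions, 0 members and 0 of all regions. These 0 values were fixed in advance, because the deposited peaks were kept by counterparts within a type by title. The last 2 alternatives were chosen after seeing the data. The Clec7a and Nos2 regions were in Sox2-EGFP- lists alone with the 5000 highest peaks, and the Irf8 region was lost at a -log10 q of at least 5. The core GAGGAA was in 18.1% of all windows 100 bp to each side of the summit and in 27.6% of those over 1 kb from a start site. Leaving out each list gave 9 member regions in Sox2-EGFP- lists alone, 10 in both and 41 to 42 in Sox2-EGFP+ lists alone, 4 members, 3902 to 3959 regions of all genes and a share near member or myeloid genes of 0.379% to 0.384%; since every deposited peak has a counterpart in a list of its type, this alternative could move little. No paired analysis was possible because no result comes from a fit or a test; as a description chosen after seeing the data, the lists of the same stage and replicate number were set side by side in 3 pairs. Member regions in the Sox2-EGFP- list alone were 10 in the E14.5 pair and 9 and 8 in the E16 pairs. The strong Clec7a and Nos2 regions were among them in every pair. That outcome was fixed in advance, because both regions were in all 3 Sox2-EGFP- lists and in no Sox2-EGFP+ list. In the E14.5 pair, 6 member regions were shared and 8 were in the Sox2-EGFP+ list alone, with 8441 Sox2-EGFP- alone regions over all genes; in the E16 pair of replicate 1, 14 member regions were in the Sox2-EGFP+ list alone.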
